A study of Mus musculus with 15 samples.

Results

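The genes described here are the 36 that build, control or work beside the proton pump of clear cells, the acid-secreting cells of the epididymal lining. They were chosen by gene symbol from a list of names drawn up with earlier results of these data known. Shares of all genes set beside counts of the list are therefore descriptions, not tests of the list. All 36 were found among the 41591 gene IDs of the count table. The list held 14 general and 5 cell-specific pump subunits, 2 brain-enriched subunits, 2 accessory proteins, 2 transcription factors, 1 ammonia channel and 10 transporters or channels of bicarbonate, protons and anions. Gene levels were read by RNA-seq from whole epididymides of 7-week-old mice, 1 library per animal and 5 animals per genotype. The KO mice carried the Plag1 -/- genotype, the HET mice carried Plag1 -/+ and the WT mice were wild type at Plag1, the gene of a zinc finger transcription factor. The strain label of all 15 animals reads Brown Swiss. The labels name no allele design, litter, batch or day.

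The vacuolar proton pump is a rotary enzyme. Its V1 sector in the cytoplasm splits ATP, and its V0 sector in the membrane carries the protons. Most cells run the pump in lysosomes with general subunit isoforms, whereas acid-secreting cells of kidney and epididymis add isoforms of the B, C, G, a and d subunits and place the pump on the cell surface. In the epididymis the acidic, low-bicarbonate fluid keeps sperm quiescent during storage. Principal cells, which make up most of the lining, also move protons, bicarbonate and chloride, so several transporters listed here are not confined to clear cells. In whole tissue, fewer cells of a type and less RNA per cell cannot be told apart.

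Libraries held 25.3 to 41.96 M counts in KO, 23.6 to 33.8 M in HET and 20.3 to 27.8 M in WT. The part of Plag1 that the mutation removes is not given in the sources used here. The gene averaged 8.32 ± 0.972 CPM (counts per M of the TMM-scaled library size) in KO, 10.1 ± 1.38 in HET and 12.7 ± 0.869 in WT (SD, n = 5 each). Ribosomal RNA (Rn18s-rs5) held over 1% of the counts in KO-738 and HET-693. KO-738 stood apart from the other 4 KO libraries in several genes below, so results are also given without it. Because its values in these genes prompted that choice, a smaller adjusted p without it is not independent support for a change. Animals KO-694, KO-695, KO-696, HET-692 and HET-693 have numbers below 700, and no WT animal does. What the numbers stand for is not stated, so number range and genotype cannot be fully told apart.

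Promoter windows are shown for the 3 genes whose level changed in KO against WT (Atp6v1c2, Dmrt2 and Slc26a3) and for one cell-specific and one general subunit that did not pass the test (Atp6v1b1 and Atp6v1a). Each runs from 250 bases before to 50 bases after a RefSeq transcript start, 5′ to 3′ on the gene's strand, in GRCm38.p6. The windows were searched for 4 motifs on both strands, and capitals mark the matches. Of the palindrome TCACGTGA only the inner CACGTG is in capitals. The windows are Atp6v1c2 chr12:17324681-17324980 (minus strand), Dmrt2 chr19:25672161-25672460 (plus), Slc26a3 chr12:31437969-31438268 (plus), Atp6v1b1 chr6:83742767-83743066 (plus) and Atp6v1a chr16:44139210-44139509 (minus). The start used is the outermost annotated one for Atp6v1b1, and lies inside it by 17 bases for Dmrt2, 443 for Atp6v1a, 656 for Atp6v1c2 and 5077 for Slc26a3.
Atp6v1c2: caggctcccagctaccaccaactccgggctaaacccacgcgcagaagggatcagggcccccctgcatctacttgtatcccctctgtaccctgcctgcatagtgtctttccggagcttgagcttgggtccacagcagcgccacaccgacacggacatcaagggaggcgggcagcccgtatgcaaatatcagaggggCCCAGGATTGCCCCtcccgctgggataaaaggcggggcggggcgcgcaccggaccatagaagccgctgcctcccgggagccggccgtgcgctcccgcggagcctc
Dmrt2: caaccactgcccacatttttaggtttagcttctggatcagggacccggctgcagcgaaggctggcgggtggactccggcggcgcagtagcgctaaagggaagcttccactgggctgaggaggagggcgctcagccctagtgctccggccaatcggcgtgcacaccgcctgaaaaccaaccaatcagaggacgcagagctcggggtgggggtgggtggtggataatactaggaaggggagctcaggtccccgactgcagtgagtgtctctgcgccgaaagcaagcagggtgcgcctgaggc
Slc26a3: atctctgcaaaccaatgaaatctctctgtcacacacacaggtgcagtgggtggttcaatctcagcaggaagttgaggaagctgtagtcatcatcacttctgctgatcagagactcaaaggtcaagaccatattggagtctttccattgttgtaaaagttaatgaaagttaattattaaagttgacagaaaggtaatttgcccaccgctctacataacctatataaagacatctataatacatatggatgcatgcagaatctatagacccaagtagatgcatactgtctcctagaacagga
Atp6v1b1: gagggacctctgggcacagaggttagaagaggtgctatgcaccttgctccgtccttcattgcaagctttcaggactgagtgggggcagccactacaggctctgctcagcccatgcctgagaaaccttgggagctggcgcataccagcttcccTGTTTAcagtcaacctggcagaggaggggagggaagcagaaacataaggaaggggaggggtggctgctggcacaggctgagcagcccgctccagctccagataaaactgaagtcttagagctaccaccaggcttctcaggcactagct
Atp6v1a: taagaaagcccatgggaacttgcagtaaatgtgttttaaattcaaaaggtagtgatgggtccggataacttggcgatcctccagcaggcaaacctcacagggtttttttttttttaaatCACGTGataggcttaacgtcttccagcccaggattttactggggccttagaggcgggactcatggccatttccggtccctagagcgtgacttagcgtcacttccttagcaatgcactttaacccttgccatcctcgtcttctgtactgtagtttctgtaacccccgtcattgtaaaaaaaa

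In the Atp6v1c2 window the capitals mark a PLAG1-like match, which was searched as GGGGC or GAGGC followed by 6 to 8 bases of any kind and GGG. It was found on the minus strand of the printed sequence, from base 196. The window of Atp6v1b1 held 1 forkhead core (TAAACA, the core read by factors of the FOXI1 family) on the minus strand, from base 153. The window of Atp6v1a held 1 E-box CACGTG, from base 120, which lies inside the longer palindrome TCACGTGA read by lysosomal-gene regulators such as TFEB. The windows of Dmrt2 and Slc26a3 held none of the 4 motifs. RefSeq windows were matched for 27 of the 36 genes, as 32 windows out of 32851 in the whole table. The PLAG1-like motif was in 4 of the 32 windows (Atp6v0e2, Atp6v1c2, Cftr and Slc4a4), against 22.7% of all windows. The forkhead core was in 1 of the 32, against 13.4% of all windows. CACGTG was in 5 (Atp6v0b, Atp6v0d1, Atp6v0e, Atp6v1a and Slc9a3), against 7.15% of all, and the longer palindrome in 3 of those (Atp6v0d1, Atp6v0e and Atp6v1a), against 0.974% of all. A match is only a description of letters in these windows.

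In WT epididymis the general subunits were the more abundant isoform in each of 5 isoform pairs, measured as CPM per kilobase of exon. Atp6v1g1, a stalk subunit, led all 36 genes at 288 ± 11.3 CPM per kb, followed by the ammonia channel Rhcg at 193 ± 19.2 and the accessory protein Atp6ap1 at 119 ± 3.99 (SD, n = 5). Atp6v0d1 (67.6 ± 1.56) and Atp6v1f (63.5 ± 7.46) came next and did not differ beyond their spread. A run of 11 genes between 43.2 and 27.4 CPM per kb held Atp6v0a1, Atp6v0b, Atp6v0e, Atp6v1h, Atp6v1d, Foxi1, Atp6v1c1, Atp6v1g3, Atp6v1a, Atp6v0e2 and Atp6v0d2, and neighbours in that run lay within each other's spread. Among the cell-specific subunits the order was Atp6v1g3 (33.4 ± 2.35), Atp6v0d2 (27.4 ± 2.89), Atp6v1c2 (19.8 ± 1.54), Atp6v1b1 (3.78 ± 0.157) and Atp6v0a4 (3.08 ± 0.136). Atp6v1b1 and Atp6v0a4 are the subunits whose human forms are mutated in distal renal tubular acidosis, and they were the lowest of the 5. The Atp6v0a4 level is uncertain, since 4 other annotated genes overlap its span. At the foot of the order Slc9a4, Slc26a6 and Atp6v1g2 lay between 0.529 and 0.367 CPM per kb, and Slc4a9 and Slc26a4 were at 0.0692 and 0.0317.

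**Figure D1:**
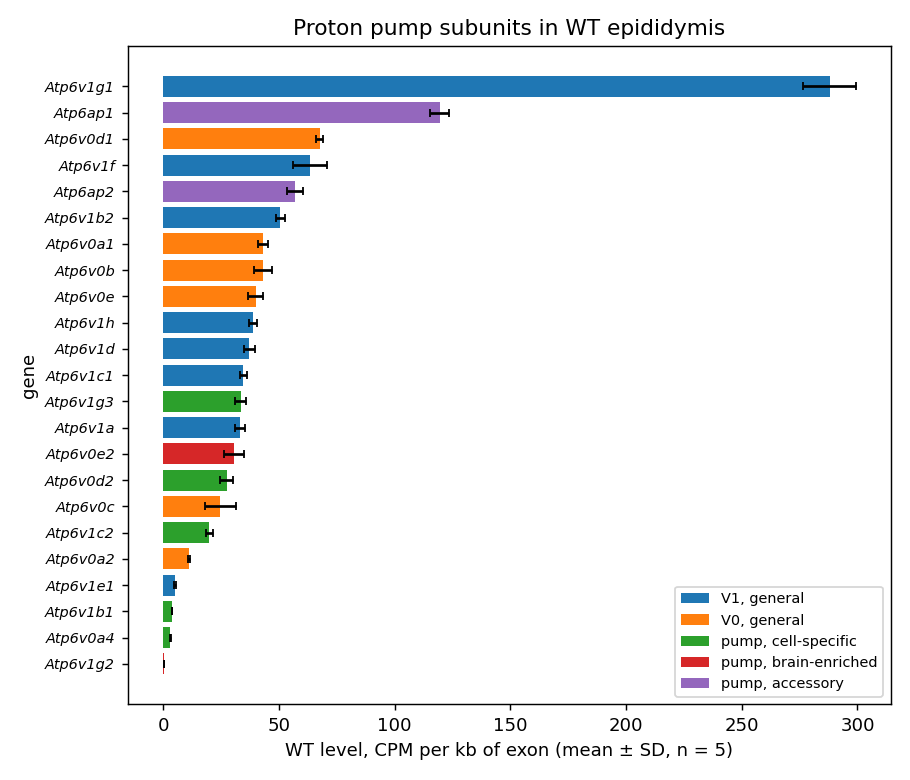
Level of the 23 pump subunits and accessory proteins in WT epididymis, in CPM per kilobase of exon (bars, mean; whiskers, SD over 5 libraries), coloured by role. Atp6v1g1 stands at 288, and the cell-specific subunits run between 33.4 (Atp6v1g3) and 3.08 (Atp6v0a4).

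Of 6 clear cell markers, Foxi1, Atp6v1b1, Atp6v0d2, Atp6v1g3 and Dmrt2 were counted in every library at 10 CPM or more, whereas Slc4a9 was at 0.441 CPM or less. Their summed level was 211 to 254 CPM in KO, 229 to 256 in HET and 237 to 259 in WT, so the 3 ranges overlapped in part. The sum lay below the lowest WT library in KO-694, KO-696, KO-739 and HET-718 (211, 219, 235 and 229 CPM). It lay within the WT range in the remaining KO and HET libraries. The kidney tubule genes measured as a control (Umod, Slc12a1, Slc12a3 and Aqp2), which lie beside proton-secreting cells in kidney, summed to at most 1.94 CPM in any library.

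Loss of Plag1 went with lower levels of 3 of the 34 genes that could be tested, and with higher levels of 0. The 3 were the cell-specific pump subunit Atp6v1c2, the transcription factor Dmrt2 and the chloride-bicarbonate exchanger Slc26a3. Over all 19388 genes tested, 1.6% were lower and 4.4% were higher in KO by the same rule, an adjusted p under 0.05 in edgeR's quasi-likelihood test with Benjamini-Hochberg adjustment. The other 31 genes did not pass. Of the 34, 21 had a negative and 13 a positive log2 fold change, with a median of -0.05, against -0.01 over all genes. At an unadjusted p under 0.05 there were 7 of the 34, against 23.6% of all genes, and of these only Rhcg was higher in KO. Each of DESeq2 and limma voom called 5 of the 34, against 9.95% and 8.73% of all genes, and neither called a gene of the list higher. In 2 of the 34 (Atp6v1g1 and Dmrt2) every KO library was below every WT library, against 1.37% of all genes, and in 0 every KO library was above, against 2.84% of all genes. Without KO-738 edgeR called 7 of the 34, against 15% of all genes, namely these 3 with Atp6v1d, Atp6v1g1, Slc9a3 and Rhcg. With only the animals numbered 700 and above (2 KO and 5 WT) it called 0 of the list and 0 over all genes.

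**Figure D2:**
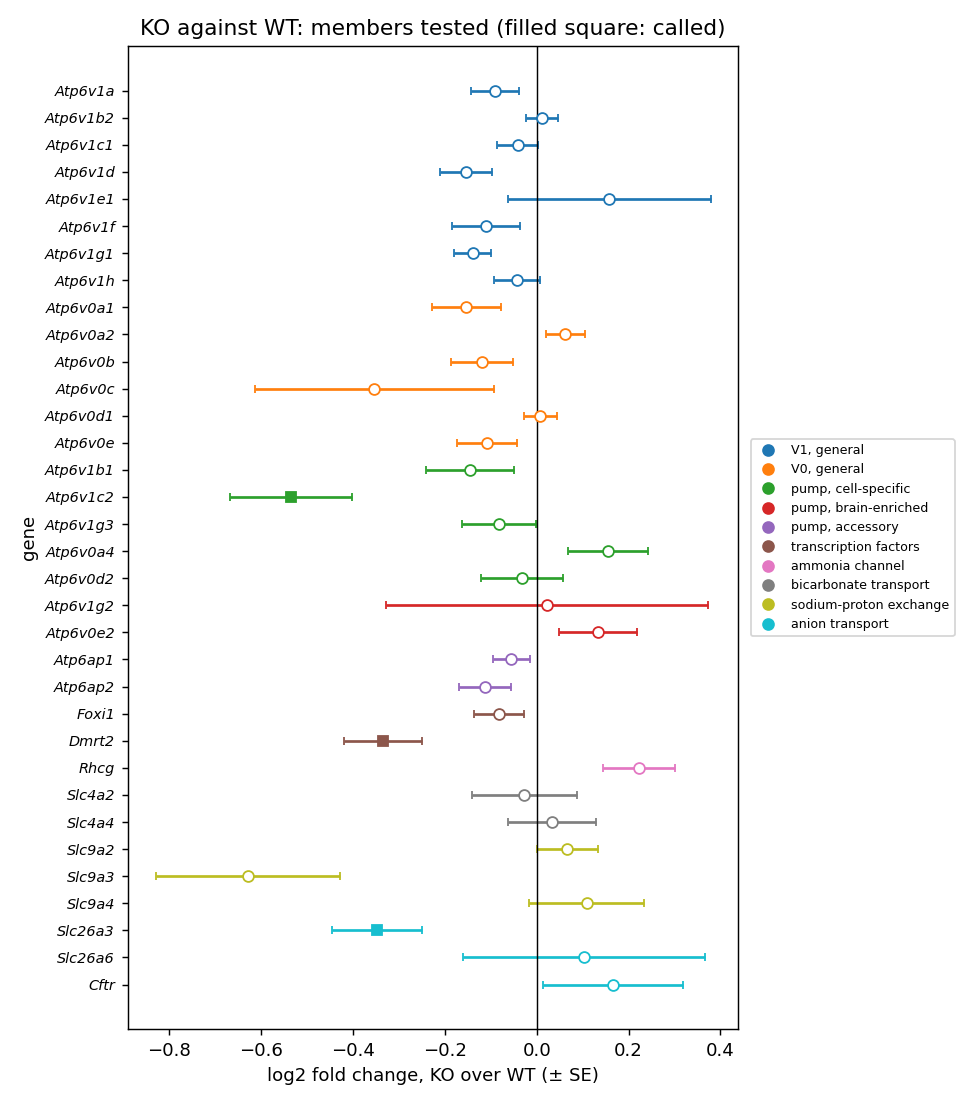
Log2 fold change of KO over WT for the 34 genes tested (points; whiskers, SE of the fit), grouped and coloured by role, with filled squares for the 3 that passed the test. Atp6v1c2 at -0.53, Dmrt2 at -0.33 and Slc26a3 at -0.35 stand left of 0, and Slc9a3 at -0.63 has a wider error and did not pass.

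Atp6v1c2 encodes the C2 isoform of the subunit that clamps V1 onto V0, and the gene lies at chr12:17284721-17325386 (GRCm38.p6, minus strand). Its level was 23.0, 18.4, 17.9, 33.3 and 20.8 CPM in KO-694, KO-695, KO-696, KO-738 and KO-739. It was 30.3, 30.4, 34.8, 32.3 and 32.4 CPM in HET-692, HET-693, HET-715, HET-718 and HET-735, and 35.5, 29.1, 33.3, 31.5 and 34.5 CPM in WT-709, WT-719, WT-720, WT-723 and WT-726. In KO, 4 libraries lay below every HET and WT library, and KO-738 lay among the HET and WT values. The KO mean of 22.7 ± 6.27 CPM was 69.0% of the WT level of 32.8 ± 2.54, a log2 fold change of -0.53 ± 0.13 (SE; adjusted p = 0.0316). Without KO-738 it was -0.71 (adjusted p = 0.000102). The call was lost, with adjusted p between 0.0569 and 0.0817 and log2 fold changes of -0.56 to -0.47, on leaving out any 1 of KO-694, KO-695, KO-696, KO-739, WT-709, WT-720, WT-723 and WT-726. With the number range as a term the value was -0.38 (adjusted p = 0.171), and among animals numbered 700 and above it was -0.28 (adjusted p = 0.371). The gene shares 50 bases of exon with Pdia6, a far more abundant gene at 1359 CPM in KO and 1354 CPM in WT (log2 fold change 0.00 ± 0.06), so reads in that stretch cannot be assigned with certainty.

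The other cell-specific subunits did not pass the test. Atp6v1b1, the B1 isoform of a nucleotide-binding V1 subunit, had 10.4, 13.8, 10.5, 11.9 and 11.4 CPM in the KO libraries, 14.6, 13.9, 11.0, 10.8 and 12.4 in HET and 12.1, 13.5, 12.6, 13.1 and 12.9 in WT, in the order of animals given above. In KO, 4 of 5 values lay below all WT values, and KO-695 lay above them. The log2 fold change was -0.14 ± 0.10 (adjusted p = 0.39). Atp6v1g3, the kidney-type G stalk subunit, had 53.9, 56.9, 49.8, 69.2 and 67.9 CPM in KO, 61.5, 64.1, 65.6, 59.7 and 63.3 in HET and 59.5, 57.8, 63.3, 65.8 and 68.6 in WT. Its KO libraries reached both below and above the WT range, with a log2 fold change of -0.08 ± 0.08 (adjusted p = 0.585). Atp6v0a4, the a4 isoform of the membrane subunit through which protons leave, had 10.1, 13.8, 13.4, 12.6 and 11.2 CPM in KO, 10.6, 10.6, 10.8, 11.7 and 9.38 in HET and 10.5, 10.7, 10.7, 11.5 and 11.5 in WT. In KO, 3 values lay above all WT values and KO-694 lay below them, and the log2 fold change was 0.16 ± 0.09 (adjusted p = 0.3). Its span overlaps more abundant D630045J12Rik, which averaged 86.0 CPM in KO and 91.3 CPM in WT. Reads in any shared stretch cannot be assigned with certainty. Atp6v0d2, the d2 isoform of the rotor subunit also known from osteoclasts, had 55.9, 77.6, 65.8, 75.2 and 65.3 CPM in KO, 71.2, 76.3, 70.8, 62.1 and 67.9 in HET and 60.2, 79.6, 69.8, 65.5 and 72.7 in WT. The genotypes overlapped almost entirely, with a log2 fold change of -0.03 ± 0.09 (adjusted p = 0.864). Over the 5 cell-specific subunits the median log2 fold change was -0.08, with 1 lower and 4 not called.

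The 14 general subunits of V1 and V0 were not called in either direction, with 10 negative and 4 positive log2 fold changes and a median of -0.10. The cell-specific and the general subunits thus had medians of -0.08 and -0.10. At an unadjusted p under 0.05 there were 2 of the 14 (against 23.6% of all genes), Atp6v1g1 and Atp6v1d, both lower in KO, and DESeq2 and limma voom each called Atp6v1g1 alone among them. Atp6v1g1 had 290.0, 288, 295, 306 and 304 CPM in KO, 302, 325, 325, 324 and 317 in HET and 340.5, 323, 326, 337 and 308 in WT. All KO libraries lay below all WT libraries. Its log2 fold change was -0.14 ± 0.04 (adjusted p = 0.0539), and without KO-738 it was -0.15 (adjusted p = 0.0356). Atp6v1d, part of the central rotor shaft, averaged 123 ± 7.52 CPM in KO and 136 ± 8.20 in WT, a log2 fold change of -0.15 ± 0.06 (adjusted p = 0.113). The core catalytic genes Atp6v1a and Atp6v1b2 averaged 132 ± 7.61 and 144 ± 1.71 CPM in KO, against 141 ± 9.21 and 143 ± 5.34 in WT. Atp6v0c, the proton-carrying ring subunit, varied within each genotype, with 12.2 to 34.2 CPM in KO, 14.7 to 28.4 in HET and 18.1 to 39.7 in WT. Its near-identical copy Atp6v0c-ps2 took 18.0 to 69.3 CPM over all libraries, so both values are uncertain. Atp6v1e1, a general stalk subunit that every pump needs, was counted at only 4.81 to 12.3 CPM in KO and 5.67 to 7.501 in WT. The overlapping pseudogene Gm19245 took at most 0.0357 CPM in a library, and the cause of the low Atp6v1e1 count was not tested. The remaining general subunits had log2 fold changes between -0.15 (Atp6v0a1) and 0.06 (Atp6v0a2). The accessory proteins Atp6ap1 and Atp6ap2, which help to assemble the pump, had log2 fold changes of -0.06 ± 0.04 and -0.11 ± 0.06. The brain-enriched subunits Atp6v0e2 and Atp6v1g2 had 0.13 ± 0.08 and 0.02 ± 0.35, Atp6v1g2 at a mean of only 0.706 CPM in KO and 0.688 in WT.

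**Figure D3:**
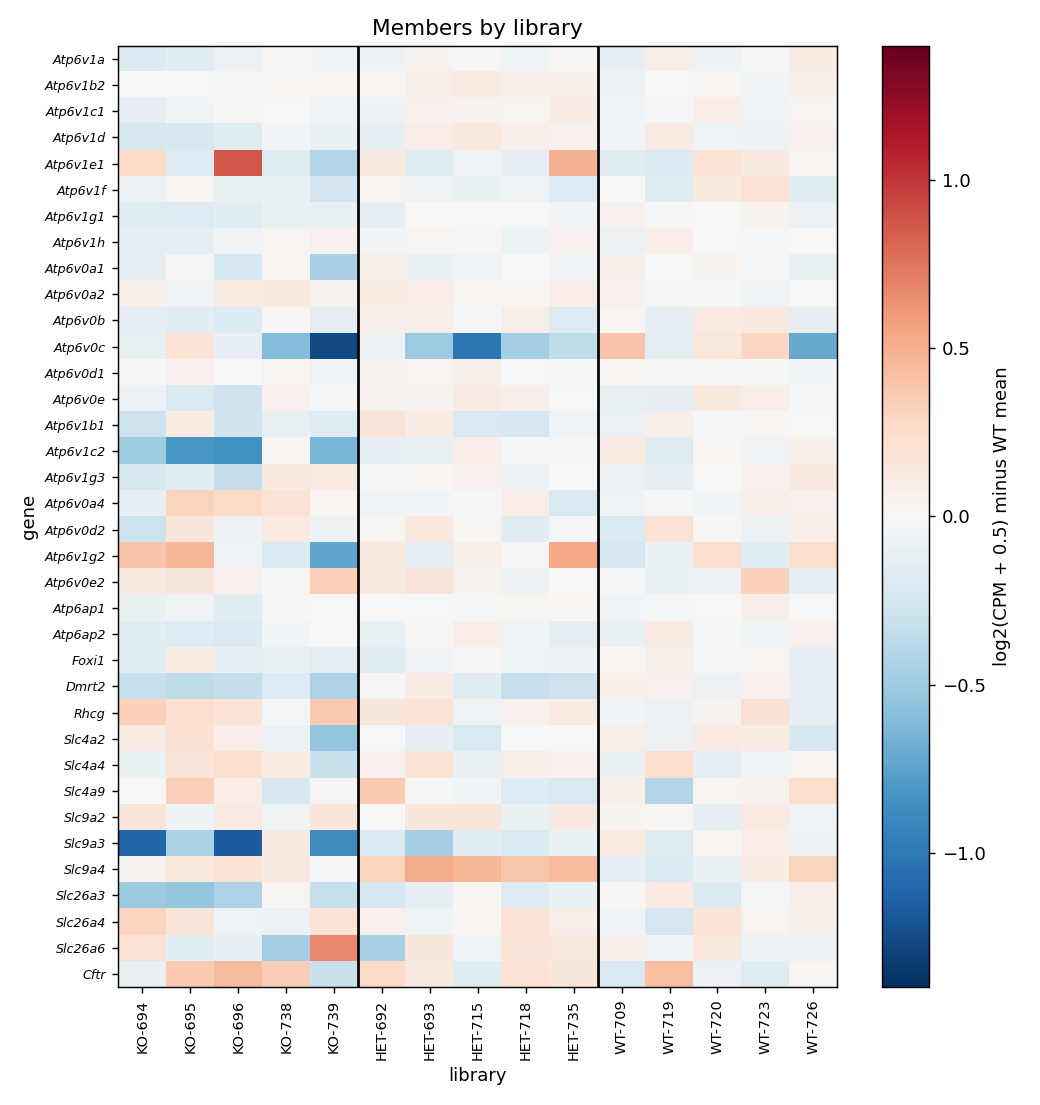
All 36 genes by library, as log2(CPM + 0.5) minus the WT mean of the gene, with KO libraries on the left, HET in the middle and WT on the right, and a colour limit of 1.4. Atp6v1c2, Slc9a3 and Slc26a3 are low in 4 KO libraries and near the WT mean in KO-738, and Atp6v0c varies within every genotype.

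Setting each cell-specific isoform over the general isoform of the same subunit within a library takes out the library scaling. The C2 over C1 ratio averaged -1.65 ± 0.361 on the log2 scale in KO, -1.19 ± 0.0819 in HET and -1.13 ± 0.123 in WT (SD, n = 5 each). The KO-WT difference was -0.53 (two-sided exact permutation p = 0.0317, Benjamini-Hochberg adjusted 0.149 over 15 ratio tests). By length, C2 made up 28.7 ± 5.24% of C1 and C2 together in KO, 35.4 ± 1.30% in HET and 36.5 ± 1.98% in WT. The a4 over a1 ratio moved the other way, at -3.68 ± 0.224 in KO, -4.01 ± 0.118 in HET and -3.99 ± 0.135 in WT. Its KO-WT difference was 0.31 (exact permutation p = 0.0397, adjusted 0.149), and a4 made up 8.17 ± 1.14% of a1 and a4 together in KO, 6.58 ± 0.498% in HET and 6.68 ± 0.588% in WT. Both the ratio and the share are uncertain, because other genes overlap Atp6v0a4. Without KO-738 the KO-WT differences were -0.66 for C2 over C1 and 0.34 for a4 over a1, and among animals numbered 700 and above they were -0.28 and 0.33. For B1 over B2 the KO-WT difference was -0.17 (exact permutation p = 0.0794, adjusted 0.238). The G3 over G1 and d2 over d1 ratios differed by 0.05 and -0.04, with exact permutation p of 0.643 and 0.659. Of the 15 ratio tests 4 had an exact p under 0.05, these and the KO-HET differences of -0.46 for C2 over C1 and 0.33 for a4 over a1, and 0 passed after adjustment. With 5 libraries against 5 the smallest exact p is 0.00794, so at least 3 of the 15 ratios would need a p near it before any could pass.

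**Figure D4:**
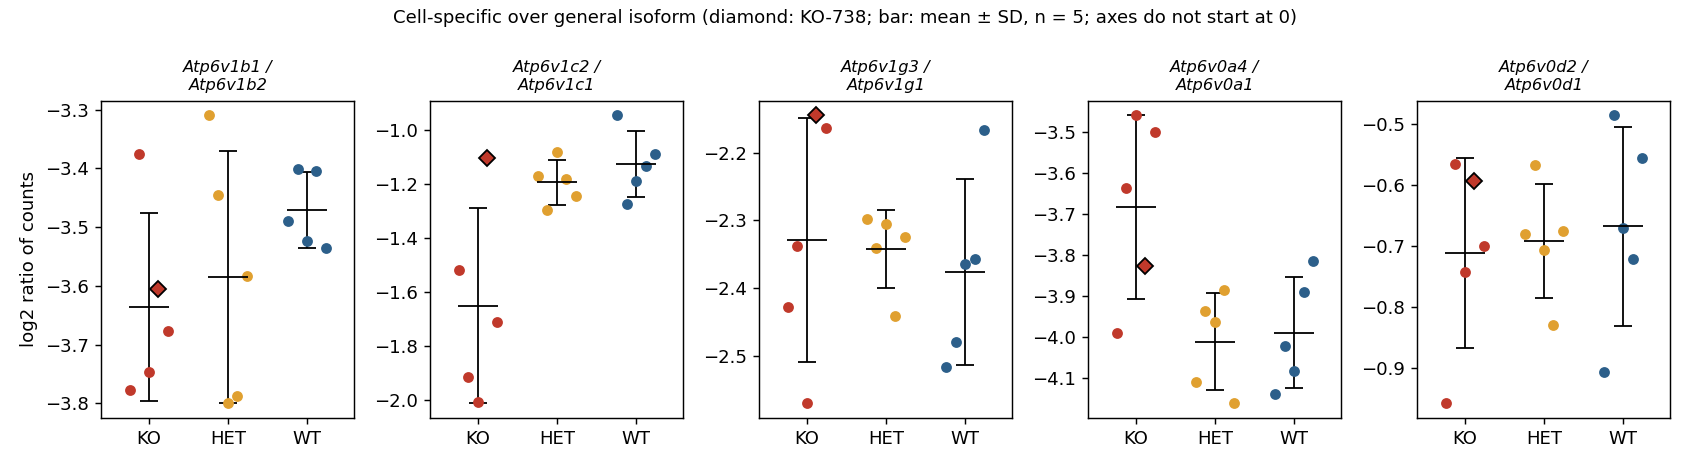
Log2 ratio of counts of the cell-specific over the general isoform in each library, in 1 panel per subunit (points, libraries, with KO-738 as a diamond; bars, mean and SD; the axes do not start at 0). In the C2 over C1 panel 4 KO libraries lie below all others, and in the a4 over a1 panel 3 KO libraries lie above all HET and WT libraries.

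Of the 2 transcription factors, Dmrt2 fell in KO and Foxi1 was not called. Dmrt2, a doublesex-type factor known for its part in the developing axial skeleton and muscle, had 14.1, 13.8, 14.0, 15.6 and 13.02 CPM in KO, 17.9, 19.2, 15.9, 14.1 and 14.3 in HET and 18.7, 18.5, 16.8, 18.6 and 16.4 in WT. All 5 KO libraries lay below all WT libraries, KO-738 included, while HET spanned both. The KO mean was 79.3% of the WT level, a log2 fold change of -0.33 ± 0.09 (adjusted p = 0.0331), and -0.37 (adjusted p = 0.0126) without KO-738. The call was lost, with adjusted p between 0.0508 and 0.0783 and log2 fold changes of -0.36 to -0.31, without any 1 of KO-694, KO-695, KO-696, KO-739, WT-709, WT-719, WT-720 and WT-723. With the number range as a term Dmrt2 was at -0.42 (adjusted p = 0.0459), and among animals numbered 700 and above at -0.31 (adjusted p = 0.197). Foxi1, the forkhead factor that clear cells need to make their pump subunits in mice, had 76.0, 91.7, 78.6, 79.0 and 77.5 CPM in KO, 76.6, 82.5, 86.4, 81.9 and 80.8 in HET and 86.6, 89.97, 83.3, 87.5 and 78.9 in WT. Of the KO values, 3 lay below the WT range and KO-695 lay just above it, with a log2 fold change of -0.08 ± 0.05 (adjusted p = 0.398).

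**Figure D5:**
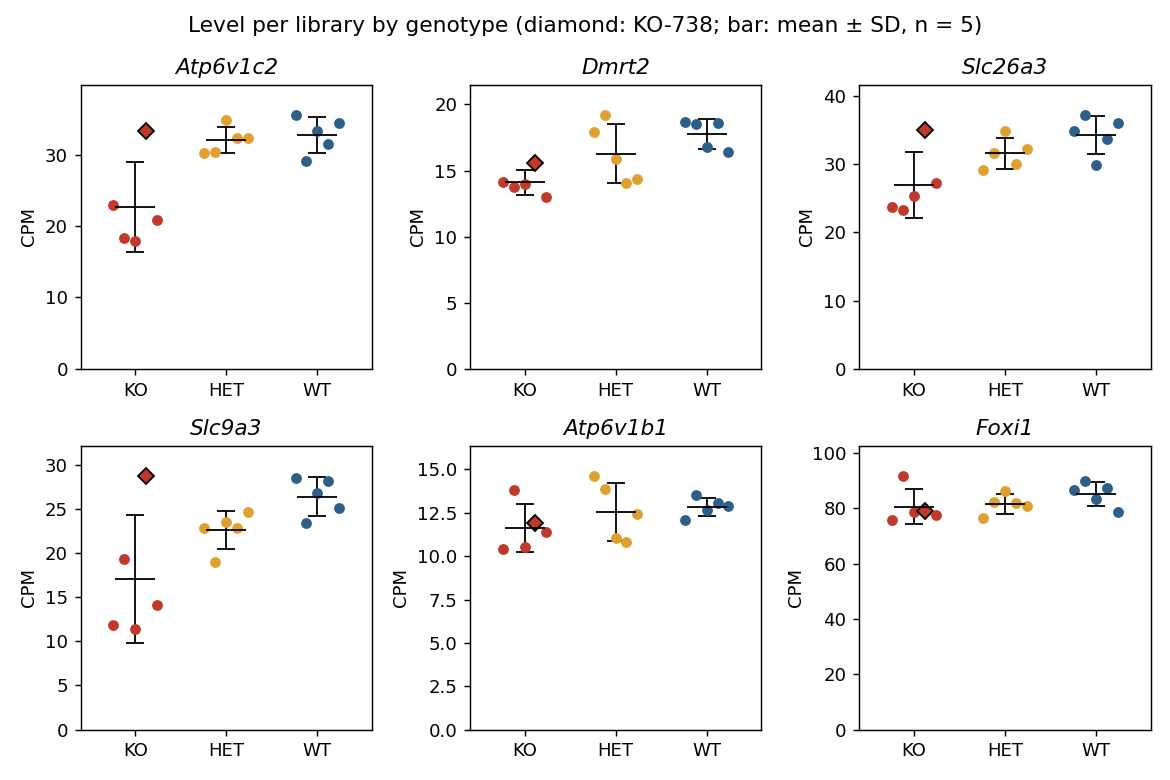
Level in CPM of 6 genes in each library (points, with KO-738 as a diamond) by genotype, with the mean and SD of 5 libraries. Atp6v1c2, Slc26a3 and Slc9a3 are lower in 4 KO libraries, Dmrt2 in all 5, and Atp6v1b1 and Foxi1 overlap between genotypes.

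Among the anion transporters, Slc26a3, an exchanger of chloride for bicarbonate best known from the gut, fell in KO. It had 23.7, 23.3, 25.3, 35.0 and 27.3 CPM in KO, 29.1, 31.6, 34.9, 30.1 and 32.2 in HET and 34.8, 37.2, 29.8, 33.8 and 36.0 in WT. KO-738 lay inside the WT range, and the other 4 KO libraries lay below every HET and WT library. The KO mean was 78.5% of the WT level, a log2 fold change of -0.35 ± 0.10 (adjusted p = 0.0476), and -0.46 (adjusted p = 0.000692) without KO-738. Its call lay near the threshold and was lost on leaving out any 1 library other than KO-738 and WT-720, with adjusted p between 0.0528 and 0.107. With the number range as a term it was at -0.22 (adjusted p = 0.252), and among animals numbered 700 and above at -0.14 (adjusted p = 0.54). Cftr, the chloride and bicarbonate channel, had 21.7, 30.4, 32.1, 29.8 and 18.8 CPM in KO, 28.3, 25.7, 20.7, 26.9 and 26.2 in HET and 20.2, 31.6, 22.1, 20.8 and 23.9 in WT. Its libraries overlapped throughout, with a log2 fold change of 0.17 ± 0.15 (adjusted p = 0.556). Slc26a6, another exchanger of the family, was at 1.20 ± 0.539 CPM in KO and 1.11 ± 0.119 in WT. Slc26a4 (pendrin) had 0.232, 0.168, 0.0693, 0.0626 and 0.179 CPM in KO, 0.118, 0.0723, 0.106, 0.182 and 0.129 in HET and 0.0768, 0.00, 0.179, 0.110 and 0.123 in WT. That is at most 6 counts in a library, too few to be tested.

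Among the sodium-proton exchangers, Slc9a3 (NHE3), which sits on the apical membrane of principal cells, had 11.8, 19.3, 11.4, 28.7 and 14.1 CPM in KO, 22.8, 18.9, 23.5, 22.9 and 24.6 in HET and 28.5, 23.4, 26.8, 28.2 and 25.1 in WT. Of the KO libraries, 4 lay below every WT library and KO-738 was the highest of all 15. With a log2 fold change of -0.63 ± 0.20 it was not called by edgeR (adjusted p = 0.0736), whereas DESeq2 gave adjusted p = 0.0232 and limma voom with quality weights 0.00436. Without KO-738 it was at -0.90 in edgeR (adjusted p = 0.000587). Slc9a2 (NHE2) averaged 54.3 ± 4.39 CPM in KO, 54.4 ± 4.15 in HET and 51.8 ± 3.48 in WT. Slc9a4 (NHE4) had 2.17, 2.35, 2.45, 2.32 and 2.03 CPM in KO, 2.71, 3.18, 3.07, 2.87 and 2.97 in HET and 1.88, 1.76, 1.89, 2.26 and 2.69 in WT. Its HET libraries lay above all KO and WT libraries, and KO and WT overlapped, with a log2 fold change of 0.11 ± 0.13 in KO over WT.

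Rhcg, which lets ammonia cross the apical membrane, was the most abundant gene of the list by counts. It had 506, 476, 460.2, 399 and 519 CPM in KO, 450.3, 459, 391, 419 and 438 in HET and 391.5, 380.0, 417, 467 and 366 in WT. Of the KO libraries, 3 lay above the WT range, and KO-696 and KO-738 lay within it. The log2 fold change was 0.22 ± 0.08 and was not called (adjusted p = 0.0949); without KO-738 it was 0.28 (adjusted p = 0.0186). The bicarbonate transporters Slc4a2 (AE2, basolateral chloride-bicarbonate exchange) and Slc4a4 (NBCe1, sodium-bicarbonate cotransport) had log2 fold changes of -0.03 ± 0.12 and 0.03 ± 0.10. Slc4a9 (AE4), an anion transporter known from the intercalated cells of kidney, had 0.232, 0.419, 0.277, 0.125 and 0.239 CPM in KO, 0.441, 0.217, 0.211, 0.146 and 0.129 in HET and 0.269, 0.0502, 0.250, 0.256 and 0.367 in WT. It had at most 15 counts in a library and was not tested.

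In HET against WT no gene of the list was called, and the median log2 fold change over the 34 was 0.00. Of all genes, 0% were higher and 0% lower by edgeR, so the count of 0 matches the whole table. At an unadjusted p under 0.05 there was 1 of the 34, Slc9a4, against 4.4% of all genes. DESeq2 and limma voom likewise called 0 of the 34, against 0.00516% and 0% of all genes. Slc9a4 had all 5 HET libraries (2.71 to 3.18 CPM) above all WT libraries (1.76 to 2.69 CPM), a log2 fold change of 0.49 ± 0.13 with an adjusted p of 0.981. That was 1 of the 34, against 0.717% of all genes with every HET library above every WT library. Slc9a4 had only 69 to 92 counts per library in HET and 35 to 66 in WT. Atp6v1c2 was at -0.03 ± 0.13, Dmrt2 at -0.13 ± 0.09, Slc26a3 at -0.12 ± 0.10 and Slc9a3 at -0.23 ± 0.20 on the log2 scale in HET over WT.

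In KO against HET edgeR called 0 of the 34, against 1.61% of all genes higher and 0.351% lower. At an unadjusted p under 0.05 there were 8, against 20.8% of all genes. DESeq2 called 2 (Atp6v1c2 and Atp6v1d), against 6.41% of all genes, and limma voom called 6 (both of these with Atp6v1g1, Slc26a3, Slc9a3 and Slc9a4), against 10.1%. Without KO-738 edgeR called 4, against 12.5%. The median log2 fold change was -0.07, with 26 of 34 negative. Atp6v1c2 was at -0.50 ± 0.13 (adjusted p = 0.0622) and Atp6v1d at -0.20 ± 0.06 (adjusted p = 0.0721). Slc9a4 was at -0.38 ± 0.12 (adjusted p = 0.0985), with KO libraries at 2.03 to 2.45 CPM, all below the HET range of 2.71 to 3.18. It was the only 1 of the 34 with every KO library below every HET library, against 1.42% of all genes. KO against HET and KO against WT share the KO libraries, so their values are not independent.

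Calls among genes around the pump in KO against WT are read beside 4.4% of all genes higher and 1.6% lower. Of 23 tested assembly factors, regulators and lysosomal chloride exchangers, 1 rose and 1 fell. An unadjusted p under 0.05 was found for 5 of the 23, against 23.6% of all genes. Adcy10, the soluble adenylyl cyclase that senses bicarbonate, averaged 2.18 ± 1.49 CPM in KO and 0.750 ± 0.238 in WT (log2 fold change 1.56 ± 0.40, adjusted p = 0.034). Its 5 KO values ran between 0.720 in KO-738 and 4.62 in KO-696. The germ cell list, summed over 7 genes, was likewise lowest in KO-738 (23.9 CPM) and highest in KO-696 (162 CPM) among KO libraries, against 23.4 to 57.5 CPM in WT, and its part in the Adcy10 result was not tested. Clcn7, the lysosomal chloride-proton exchanger, averaged 101 ± 10.3 CPM in KO and 119 ± 5.35 in WT (-0.23 ± 0.06, adjusted p = 0.0413).

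Of 29 other acid-base genes tested, 0 rose and 3 fell in KO against WT, and 12 had an unadjusted p under 0.05, against 23.6% of all genes. Car4, the membrane-bound carbonic anhydrase, averaged 102 ± 27.7 CPM in KO, 172 ± 30.8 in HET and 158 ± 12.5 in WT. Its log2 fold change was -0.63 ± 0.16 in KO over WT (adjusted p = 0.032) and -0.75 ± 0.16 in KO over HET (adjusted p = 0.0302). KO-738 had 148 CPM, inside the WT range of 144 to 176, and the other 4 KO libraries had at most 107 CPM. Slc26a7, an anion exchanger of acid-secreting cells, averaged 7.12 ± 2.19 CPM in KO and 11.9 ± 2.78 in WT (-0.74 ± 0.19, adjusted p = 0.0318). Slc16a1, the monocarboxylate transporter that moves lactate with a proton, averaged 69.3 ± 13.1 CPM in KO and 90.4 ± 5.43 in WT (-0.38 ± 0.10, adjusted p = 0.0354). KO-738 was the highest KO library for Slc26a7 and Slc16a1 as well, at 10.9 and 86.9 CPM.

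Of 11 tested genes known from proton-secreting cells of other organs, 1 rose and 1 fell in KO against WT. An unadjusted p under 0.05 was found for 7 of the 11, against 23.6% of all genes. Mcoln3, a cation channel of endosomes, had 2.79, 3.02, 4.23, 6.01 and 2.93 CPM in KO and 7.87 to 8.73 CPM in WT, with no overlap. It had the lowest adjusted p of these lists (log2 fold change -1.14 ± 0.18, adjusted p = 0.00436) and was also lower in KO than in HET (-0.80 ± 0.18, adjusted p = 0.0364). Adgrf5, an adhesion receptor of acid-secreting kidney cells and of endothelium, averaged 79.7 ± 7.83 CPM in KO and 60.8 ± 4.37 in WT (0.39 ± 0.06, adjusted p = 0.00455), and was also higher in KO than in HET (0.34 ± 0.06, adjusted p = 0.0226). These were the 2 calls of this list in KO against HET, beside 1.61% of all genes higher and 0.351% lower. In HET against WT edgeR called 0 genes of these 3 lists, and over all genes limma voom called 0 and DESeq2 called 1, while 854 had an unadjusted p under 0.05 in edgeR. In 2 of the 11 every HET library was below every WT library, against 63 of all 19388 genes tested.

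Markers of several other cell types were called higher in KO against WT, where 4.4% of all genes were called higher. Of 7 fibroblast and matrix genes 6 rose, and their summed level was 1945 to 3460 CPM in KO, 1756 to 2150 in HET and 1594 to 1987 in WT. Of 6 endothelial genes 5 rose (136 to 200 CPM in KO, 90.5 to 124 in HET and 82.6 to 107 in WT), and of 7 macrophage genes 5 rose (96.2 to 169 CPM in KO, 97.2 to 111 in HET and 83.0 to 99.6 in WT). KO-738 was the lowest KO library in all 3 sums and lay inside the WT range for fibroblasts and macrophages, as it did for Atp6v1c2 and Slc26a3. Of 7 germ cell genes, whose sums are given above, 3 rose. The 16 principal cell genes were not called, at 76525 to 96351 CPM in KO, 87639 to 104012 in HET and 81687 to 95025 in WT. Of 6 basal cell and 5 smooth muscle genes 0 were called, with 4 and 0 at an unadjusted p under 0.05, against 23.6% of all genes. Skeletal muscle genes summed to 3224 CPM in KO-739 and to 21.6 to 76.6 CPM in the other 14 libraries, and fat cell genes to 2.84 to 59.2 CPM in KO, 2.04 to 11.1 in HET and 2.21 to 9.93 in WT. The part of these markers in the results above was not tested.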

How the data were processed

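Per the labels' protocols, whole epididymides were teased apart, rinsed of sperm in buffered saline and extracted, and libraries were made from 2 µg of DNase-treated RNA with a stranded mRNA kit. The authors deposited raw read counts per NCBI Gene ID. For how those counts were made, the submitters' processing notes name the tools FastQC, HISAT2 2.0.5, featureCounts and Subread 1.4.6p5, and the genome build GRCm38.p6. The strand setting and annotation release are not given in the sources used here, so overlapping, antisense and near-identical genes are uncertain. A RefSeq table of the same build gave symbols for 40290 of 41591 IDs (96.9%). The rest took 0.163% to 0.208% of each library and were kept in its total.

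All 15 libraries entered 1 fit in edgeR 4.0.16 (R 4.3.3) with TMM factors, filterByExpr on the genotype, robust quasi-likelihood and a mean per genotype (12 residual degrees of freedom, biological coefficient of variation 16.3%). Benjamini-Hochberg adjustment of the two-sided p-values ran over the 19388 genes tested, and 0.05 was the threshold. Slc4a9 and Slc26a4 fell under the filter. CPM use TMM library sizes, and CPM per kilobase divides by the union of exons over all GENCODE M21 basic models of a gene. That union can be longer than the transcript in use, so the order of genes and the isoform shares by length depend on it. Isoform ratios are log2 ratios of counts with a prior of 0.5, compared by exact permutation over libraries. DESeq2 1.42.0, limma 3.58.1 with voom, other filters and factors, the animal number range and left-out libraries were the alternatives tried. The edgeR script was tested on simulated data in which all genes had the same dispersion. For KO against WT it recovered 29 of 67 changes of 1.5-fold, 57 of 67 of 2-fold and 65 of 66 of 4-fold. Of its 160 calls, 9 were false. A gene not called is therefore not shown to be unchanged. At 20.3 to 41.96 M counts per library, counting error is small for genes above a few CPM.

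The genes and lists were chosen with earlier results of these data known. Values per library are given for genes called in a comparison, the cell-specific subunits, Foxi1, Dmrt2, Rhcg, Cftr, Slc4a9, Slc26a3 and Slc26a4; Slc9a3, Atp6v1g1 and Slc9a4 were added after their values were seen. Genes of other lists are named where called. Animals are the replicates, and p-values set the difference between genotypes against the spread between these animals. The labels give no litter or batch, so any such grouping is not accounted for and could make the p-values too small. Promoter sequences are RefSeq's for GRCm38.p6.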

Additional observations from a re-analysis of the deposited data

Results flagged for a closer look

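Among 108 groups of 5 libraries, 1 per gene and genotype, 5 held a library whose distance to its nearest neighbour took up more of the group's range than Dixon's 95% limit allows, which chance gives in about 1 group in 20. Foxi1 was at 91.7 CPM in KO-695, with 76.0 to 79.0 in the remaining KO libraries. For Atp6v0b, a ring subunit of V0, KO-738 stood at 43.5 CPM while the remaining KO libraries had 37.7 to 39.3. WT-723 was high in 2 genes, with 67.9 CPM for Atp6v0e2 (49.3 to 53.5 in the other WT libraries) and 284.8 CPM for Atp6ap1 (262.9 to 267.9). Slc4a9 was at 0.441 CPM in HET-692, against 0.129 to 0.217 CPM in the other HET libraries, and rests on at most 15 counts.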

How the results depend on the processing

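In KO against WT edgeR called 3 of the 34 genes, and the same 3 with RLE factors, with TMM factors computed without the 20 most abundant genes and with a filter of 1 CPM in 5 libraries. DESeq2 and limma voom each called 5, adding Atp6v1g1 and Slc9a3, and over all genes called 1930 and 1693, against 853 higher and 310 lower by edgeR. The count was 0 without a filter on low counts, where 34343 genes were tested and the 3 had adjusted p between 0.0524 and 0.0562 (Atp6v1c2, Dmrt2, Slc26a3). It was 1 (Dmrt2) with only the groups compared in the fit and 1 (Dmrt2) with the animal number range as a term, 0 among animals numbered 700 and above, and 7 without the libraries over 1% ribosomal RNA. Leaving out 1 library at a time gave 0 to 7, with 0 without KO-694, KO-695, KO-696, KO-739, WT-709 or WT-723 and 7 without KO-738. In KO against HET the count was 0, against 2 with DESeq2, 6 with limma voom, 4 without the libraries over 1% ribosomal RNA and 0 to 4 on leaving out 1 library. In HET against WT it was 0 under all 25 alternatives, and 0 of 15 isoform ratios passed under all 18 alternatives run. That 0 says nothing about stability, since a single ratio at the smallest exact p would adjust to 0.119 with all libraries, and among animals numbered 700 and above none could pass. The sign of the KO over WT log2 fold change was followed for the cell-specific subunits, Foxi1, Dmrt2, Rhcg, Cftr and Slc26a3. It was not followed under all alternatives for Slc9a3, Atp6v1g1 and Slc9a4. Among the genes followed, 2 uncalled ones changed sign. Atp6v1g3 went to 0.018 with the number range as a term and 0.12 among animals numbered 700 and above. Atp6v0d2 went to 0.019 among animals numbered 700 and above and ran from -0.080 to 0.034 on leaving out 1 library. The cause of these changes was not tested. No paired analysis was possible because the labels give no litter or batch by which animals of different genotypes could be matched. Depth limits Slc4a9, Slc26a4, Atp6v1g2 and Slc26a6, which were counted at no more than 69 reads in a library. It also limits Slc9a4, counted at 35 to 106 reads in a library.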
